A study of Mus musculus with 6 samples.

Results

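The SWI/SNF (BAF) chromatin remodelers, the other ATPases named Smarca, the CHD family and the ARID proteins were followed across 6 RNA-seq libraries of embryonic mouse forebrain. The members are the 40 symbols, of 24444 in the deposited table, whose names match the Smarca to Smarce series, Chd1 to Chd9, Arid1 to Arid5 with a letter, Actl6a and Actl6b, Dpf1 to Dpf3, Phf10, Ss18 or Ss18l1. Of these, 39 fell into 6 groups by known role, and the remaining one, Smarca5-ps, is a pseudogene. Poly(A) RNA came from telencephalon, the part of the forebrain that forms cortex and basal ganglia, of C57BL/6J mouse embryos at E12.5. The 3 wild-type libraries (Ctl in the titles) and the 3 Arl13b-/- libraries, here called Arl13b-null or null 1 to 3, share tissue, age and strain. The product of Arl13b is a GTPase found in primary cilia, and the series asks how cilia bear on axon tracts. The labels do not name the mutant allele, the number of embryos behind a library or their sex. The p-values below therefore set the genotype difference only against the variation between libraries of a group, which can include technical variation.

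BAF complexes use the energy of ATP to slide or evict nucleosomes. Smarca4 or Smarca2 is the motor, around a core that is shared by most cell types. Neural progenitors and neurons assemble different versions: as a progenitor leaves the cell cycle, the actin-related subunit Actl6a gives way to Actl6b, the PHD-finger subunits Phf10 and Dpf2 to Dpf1 and Dpf3, and Ss18 to its homologue Ss18l1. This exchange is known as the neuronal BAF switch. CHD proteins and the ISWI motors Smarca1 and Smarca5 are separate remodelers, of which Chd5 is known from neurons and Chd7 from neural progenitors.

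A library's level of a gene is given below as a variance-stabilised value, on a log2-like scale, or as normalized counts obtained by undoing that transformation. Normalized counts summed to between 27477400 and 36179900 per library. Wild-type 1 and null 2 stood apart from the other 4 libraries. Their Pearson correlations with those 4, across 14249 genes, were between 0.880 and 0.898 and between 0.702 and 0.722, against at least 0.985 among the 4. All 12 cell cycle markers were lower in both libraries than in the 2 others of their genotype, by at least 1.56 and 2.46 on the log2 scale, and their summed counts were 19441 in wild-type 1 and 2373 in null 2, against 76650 to 90316 elsewhere. Radial glial markers summed to 46376 and 3839, against at least 110556 elsewhere, and neuronal markers to 269582 and 600896, against 155091 to 164769. Not every radial glial marker followed its sum. In wild-type 1, 8 of 10 were lower by at least 1, whereas Slc1a3 and Fabp7 were higher by 1.29 and 0.33. In null 2 all 10 were lower by at least 1. Of 12 neuronal markers, 5 were higher by at least 1 in wild-type 1 and 7 differed by less. In null 2, 7 were higher by at least 1 and 5 differed by less, with Nefm and Elavl4 at −0.30 and −0.072. Other cell types differed as well: surface ectoderm markers summed to 15319 in wild-type 1 against 212 to 4106 elsewhere, and 3 of 5 red blood cell markers, the embryonic globins Hbb-y, Hbb-bh1 and Hba-x, were at 0 in null 2. In wild-type 1 these 3 globins differed by −6.37, −5.52 and −5.45 from wild-type 2 and 3. The other 2 red blood cell markers, Hba-a1 and Alas2, were higher there by 1.09 and 1.11. Of 10 surface ectoderm markers, 7 were higher by at least 1 in wild-type 1 and 3 differed by less than 1. Mesenchyme, endothelium and microglia markers summed to 596, 482 and 162 in null 2. Elsewhere they summed to 25731 to 70411, 5557 to 7766 and 915 to 1485. In null 2, 7 of 8 mesenchyme, 6 of 6 endothelium and 4 of 6 microglia markers were lower by at least 1. The microglial marker Aif1 was higher there by 0.70. In bulk RNA, fewer cells of a type and less RNA per cell cannot be told apart. Transcripts of Arl13b itself stood at 661, 553 and 560.0 normalized counts across wild-type 1 to 3 and 492, 532 and 564 across null 1 to 3, so the gene's total does not check the genotype labels. Comparisons are therefore given for all 6 libraries and for wild-type 2 and 3 against null 1 and 3.

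Of the BAF subunit pairs, Actl6a and Actl6b diverged most between libraries. Actl6a, the progenitor subunit, stood at 1059.7, 3624 and 3634 normalized counts across wild-type 1 to 3 and 3681, 240.1 and 3620.3 across null 1 to 3. Wild-type 1 had less than the others and null 2 least, while the other 4 libraries, of both genotypes, held nearly the same amount. Actl6b, the neuronal subunit, ran the other way, with 3506, 1338 and 1330.3 across wild-type 1 to 3 and 1410.0, 6301 and 1153 across null 1 to 3. Relative to the other libraries of its genotype, Actl6a was 3.42-fold lower in wild-type 1 and 15.2-fold lower in null 2, and Actl6b was 2.63-fold and 4.92-fold higher. Per kilobase of transcript, Actl6b made up 80.7% of the pair in wild-type 1 and 97.1% in null 2, against 28.7% to 32.6% in the other 4 libraries.

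The sequences upstream of this pair and of Dpf2 and Dpf1 are shown because their transcripts ran in opposite directions, so that their promoters can be read side by side. Each line gives the 250 bases before the start site in RefSeq (build GRCm38.p6, not the build of the files), 5′ to 3′ on the gene's strand, with GC boxes (GGGCGG) and CCAAT boxes (CCAAT) of either strand in capitals. The windows are chr3:32708296-32708545 (+) for Actl6a, chr5:137553296-137553545 (+) for Actl6b, chr19:5912872-5913121 (-) for Dpf2 and chr7:29303755-29304004 (+) for Dpf1.
Actl6a: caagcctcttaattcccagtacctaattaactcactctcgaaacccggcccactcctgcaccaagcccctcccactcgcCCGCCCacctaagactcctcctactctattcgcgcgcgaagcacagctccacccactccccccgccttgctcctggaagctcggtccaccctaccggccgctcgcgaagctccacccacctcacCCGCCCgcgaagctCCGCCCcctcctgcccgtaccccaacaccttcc
Actl6b: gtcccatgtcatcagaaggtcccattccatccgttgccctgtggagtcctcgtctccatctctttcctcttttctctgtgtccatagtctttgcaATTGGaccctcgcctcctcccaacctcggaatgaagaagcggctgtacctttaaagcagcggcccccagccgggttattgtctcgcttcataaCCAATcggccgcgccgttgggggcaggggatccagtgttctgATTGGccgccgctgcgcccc
Dpf2: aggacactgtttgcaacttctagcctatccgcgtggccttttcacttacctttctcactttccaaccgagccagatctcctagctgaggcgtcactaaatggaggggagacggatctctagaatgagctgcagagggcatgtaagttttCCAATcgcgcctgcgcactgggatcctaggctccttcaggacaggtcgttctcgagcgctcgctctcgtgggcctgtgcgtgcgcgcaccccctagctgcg
Dpf1: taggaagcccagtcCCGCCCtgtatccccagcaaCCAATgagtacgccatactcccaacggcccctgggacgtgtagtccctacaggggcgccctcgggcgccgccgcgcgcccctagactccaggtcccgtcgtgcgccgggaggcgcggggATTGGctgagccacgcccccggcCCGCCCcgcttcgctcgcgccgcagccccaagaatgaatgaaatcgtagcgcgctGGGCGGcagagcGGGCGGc
Actl6a held 3 GC boxes and no CCAAT box, and Actl6b 3 CCAAT boxes and no GC box. Dpf2 had 1 CCAAT box and no GC box, while Dpf1 had 4 GC boxes and 2 CCAAT boxes, so the motifs did not sort with the progenitor or neuronal role. GC content was 64.8% for Actl6a, 58% for Actl6b, 57.2% for Dpf2 and 71.6% for Dpf1, against a median of 52.4% over 32851 promoters. The table holds 37 start sites for 31 members. A GC box lay in 28 of these windows (75.7%) and in 32.7% of all windows, and a CCAAT box in 12 (32.4%) and in 33.8%. For REST, a repressor of neuronal genes outside neurons, the left part of its binding element (TTCAGCAC) was in none of the members' windows and in 0.962% of all, and the right part (GGACAG) in 6 and in 18.7%. These are matches of letters in a short window and say nothing of binding.

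**Figure D1:**
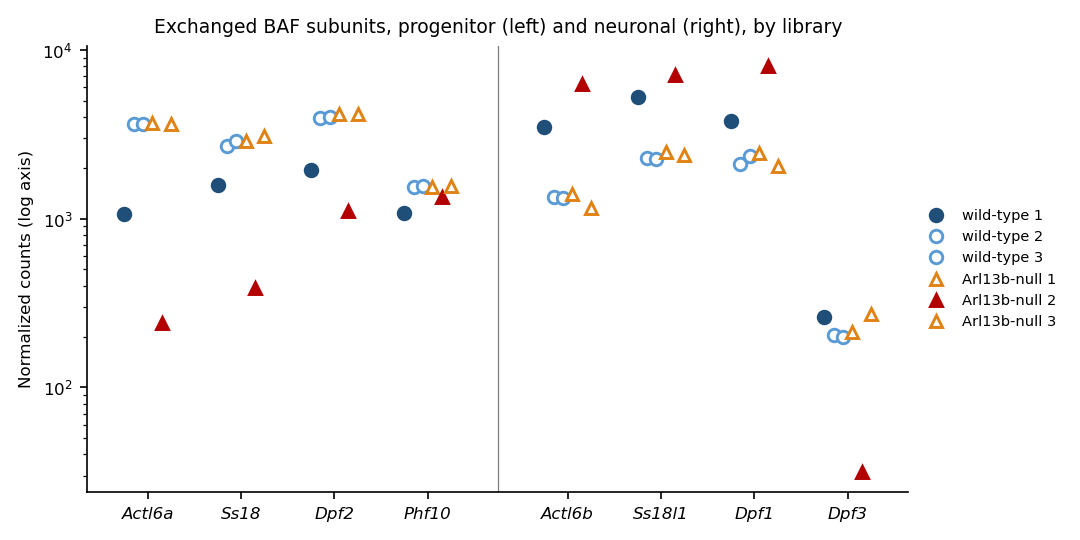
Normalized counts (log axis) of the 4 progenitor subunits (left of the line) and the 4 neuronal subunits (right) of BAF, 1 point per library, with circles for wild-type and triangles for Arl13b-null. Filled symbols mark wild-type 1 and null 2, which lie away from the 4 open symbols for most genes, whereas the open symbols of both genotypes lie close together.

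Ss18 and Ss18l1 lay on opposite sides in the same way. Ss18, a subunit of progenitor BAF, stood at 1589, 2701 and 2877 normalized counts across wild-type 1 to 3 and 2898, 389.7 and 3104 across null 1 to 3. Ss18l1 (CREST), a calcium-responsive coactivator in neuronal BAF, stood at 5274, 2292 and 2268 across wild-type 1 to 3 and 7125 in null 2, with 2492 and 2379 in null 1 and 3. Its share of the pair per kilobase was 76.0% in wild-type 1 and 94.6% in null 2, and 42.3% to 45.1% in the other 4.

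The PHD-finger subunits did not all follow their group. Dpf2 stood at 1945, 3957 and 4005 normalized counts across wild-type 1 to 3 and 4172, 1114 and 4175 across null 1 to 3, low in the libraries where Actl6a was low. Dpf1, the neuronal subunit, stood at 3779, 2097 and 2338 across wild-type 1 to 3 and 2468, 8065 and 2043 across null 1 to 3. Phf10, which is assigned to progenitors, varied little, with 1075, 1535 and 1568 across wild-type 1 to 3 and 1550.1, 1346 and 1555 across null 1 to 3. Its difference from the other libraries of the genotype was −0.50 in wild-type 1 and −0.20 in null 2, so the library with the least Actl6a kept most of its Phf10. Dpf3, although a neuronal subunit, had its lowest value in null 2: 31.5 normalized counts, against 212 and 273 in null 1 and 3, and 259.6, 204 and 199 across wild-type 1 to 3. Per kilobase, Dpf1 formed 75.1% of the sum of Phf10 and Dpf1 to Dpf3 in null 2 and 55.4% in wild-type 1, against 27.9% to 32.1% in the other 4, and Dpf3 no more than 2.80% in any library.

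Taking the mean level of the 4 neuronal subunits minus that of the 4 progenitor subunits, and setting the mean of wild-type 2 and 3 to 0, the libraries fell into an order. Wild-type 2 and 3 were at 0.0045 and −0.0045, null 1 at 0.067 and null 3 at −0.031, on the log2 scale. Wild-type 1 was at 1.90 and null 2 at 3.06. The 2 high libraries were 1 of each genotype and were those with low cell cycle and high neuronal marker sums. With 6 libraries in such separate clusters, no correlation between the index and the markers is given, and the part of cell makeup in the index was not tested.

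**Figure D2:**
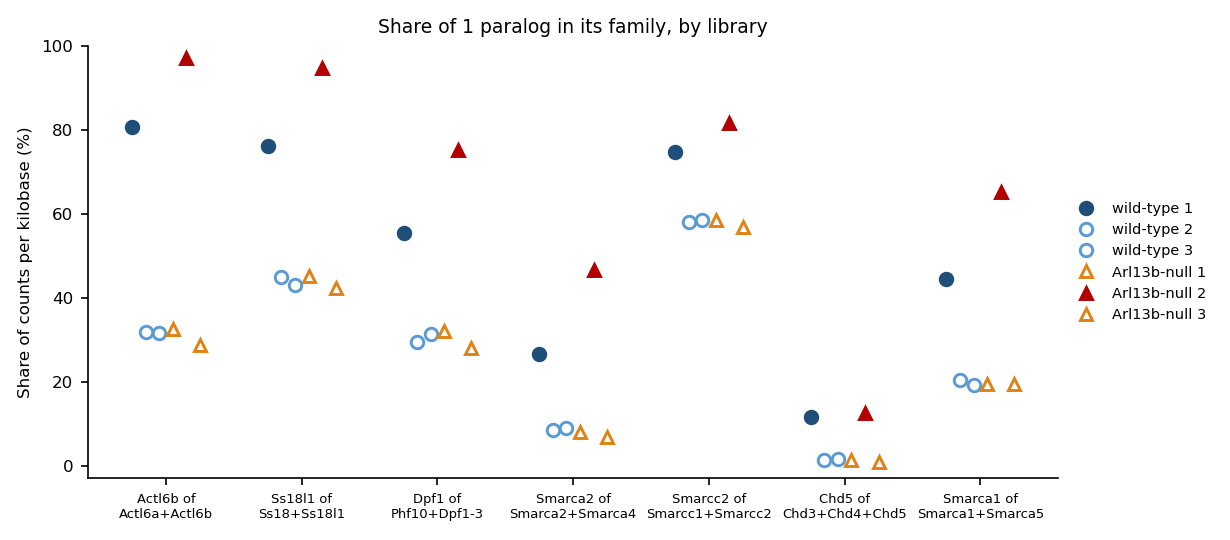
Share of 1 paralog in the summed counts per kilobase of its family (percent, linear axis), 1 point per library, for 7 families. In each family wild-type 1 and null 2 (filled) lie above the other 4 libraries, at 80.7% and 97.1% for Actl6b and at 44.4% and 65.2% for Smarca1.

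Among the motors, Smarca2 was high where Smarca4 was low. Smarca2 (BRM) stood at 6519.6, 2247 and 2426 normalized counts across wild-type 1 to 3 and 2056, 8139 and 1817 across null 1 to 3. Smarca4 (BRG1), the other motor, stood at 19488, 25748 and 26404 across wild-type 1 to 3 and 25658, 10065 and 26320.3 across null 1 to 3. Per kilobase, Smarca2 contributed 26.5% of the 2 motors in wild-type 1, 46.5% in null 2 and 6.92% to 9.0% elsewhere, so Smarca4 remained the larger part in all 6 libraries.

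Of 11 motor and core genes, 10 stayed within 2-fold of the others of the genotype in wild-type 1 (90.9%, against 81.3% of all genes tested) and 6 in null 2 (54.5%, against 53.3%). Smarcc1 (BAF155), a scaffold subunit, had 7451 and 5364 normalized counts in wild-type 1 and null 2, against 13513 to 14051 elsewhere. Its paralog Smarcc2 (BAF170) was slightly higher there, with 17407 and 18701 against 14560.5 to 15351. Smarcd3 (BAF60c), a variant subunit, stood at 4036, 2583 and 2849 across wild-type 1 to 3 and 2579, 6807 and 2164 across null 1 to 3. Its paralog Smarcd1 (BAF60a) was low in wild-type 1 only, with 6307, 9152 and 9343 across wild-type 1 to 3 and 9492, 8939.9 and 9601 across null 1 to 3. Smarcb1, which is present in nearly all BAF complexes, varied little, with 4952, 6129 and 6106 across wild-type 1 to 3 and 6359, 6407 and 5939 across null 1 to 3. Smarce1 ranged from 4879 to 8210.2. Smarcd2 was the least abundant Smarcd per kilobase in every library, with 794, 870.3 and 720.4 normalized counts across wild-type 1 to 3 and 740.2, 393 and 680.3 across null 1 to 3. Of the large ARID subunits, which direct BAF to DNA, Arid1a had 6433 in null 2 against 10571 to 16795 elsewhere, and Arid1b ranged only from 5300.3 to 6329. The genes past 2-fold were Smarca2 in wild-type 1, and in null 2 Smarca2 and Smarcd3 upwards and Smarca4, Smarcc1 and Arid1a downwards.

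CHD genes split into Chd5 and Chd3, high in the 2 libraries, and the rest. Chd5, a motor of the NuRD repressor complex in neurons, stood at 7045, 735 and 986 normalized counts across wild-type 1 to 3 and 771, 7790.1 and 509.8 across null 1 to 3. It was 8.19-fold higher in wild-type 1 and 12.2-fold higher in null 2 than the others of the genotype. Chd3, also of NuRD, stood at 26933, 18052 and 18949 across wild-type 1 to 3 and 18455, 36204 and 18221 across null 1 to 3. Chd4, the NuRD motor of dividing progenitors, was lower in the same libraries, with 12929 in wild-type 1 and 5018 in null 2, against 23620.3 to 27529. Per kilobase, Chd4 formed 57.4% to 61.6% of the 3 NuRD motors in the 4 similar libraries, 30.2% in wild-type 1 and 11.4% in null 2, where Chd3 formed 76.0%.

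Chd7 showed the widest spread of the 40 members. Known from neural crest and neural progenitors, it stood at 2449.6, 7636 and 8289 normalized counts across wild-type 1 to 3 and 7913, 111 and 10475 across null 1 to 3, which is 82.7-fold lower in null 2 than in the others of its genotype. Chd1, a remodeler linked to active transcription, had 1668 and 714 in wild-type 1 and null 2, against 3485 to 4251. Chd6 and Chd9 separated the 2 libraries. Chd6 stood at 3906, 3974 and 4180.2 normalized counts across wild-type 1 to 3 and 3812, 919.5 and 4256 across null 1 to 3. Chd9 stood at 3336, 3112 and 3194 across wild-type 1 to 3 and 2943, 637 and 3387 across null 1 to 3. In wild-type 1 both were close to the other wild-type libraries (differences of −0.06 and 0.08), and in null 2 they differed by −2.05 and −2.19 from null 1 and 3. Chd2 and Chd8 were lower by 1.29 and 1.26 in null 2 and differed by −0.26 and −0.30 in wild-type 1. Of 9 CHD genes, 1 was at least 2-fold higher and 2 lower in wild-type 1 (11.1% and 22.2%, against 12.2% and 6.55% of all genes), and 1 was higher and 7 lower in null 2 (11.1% and 77.8%, against 21.0% and 25.6%).

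Smarca5 and Smarca1, the 2 ISWI motors, also shifted against each other. Smarca5 (SNF2H), needed by dividing progenitors, stood at 2798, 7096 and 7498 normalized counts across wild-type 1 to 3 and 7620.1, 685 and 8077 across null 1 to 3. Smarca1 (SNF2L) ranged only from 1008 to 1752, so its share of the pair per kilobase was 44.4% in wild-type 1 and 65.2% in null 2, against 19.1% to 20.5% elsewhere. The pseudogene Smarca5-ps, whose reads may be shared with Smarca5, had no more than 25.1. Smarcad1, a remodeler of replicated chromatin, had 788 in null 2 and 2625 in wild-type 1, against 4269.8 to 4654, and Smarcal1, a DNA-annealing helicase of stalled replication forks, had 2197, 2031 and 2169 across wild-type 1 to 3 and 2028, 1505 and 2048 across null 1 to 3.

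ARID proteins outside BAF were mixed. Arid3b, a DNA-binding protein of early embryos, stood at 238, 859 and 845 normalized counts across wild-type 1 to 3 and 867, 110.0 and 1077 across null 1 to 3. Arid3a was also lowest in null 2 (165, against 562 to 1104), as was Arid4b, a subunit of the Sin3 repressor complex (992, against 2352 to 3350.5). Its homologue Arid4a ranged from 1087 to 1621 and Arid5b from 684 to 795. Arid5a, an RNA-binding protein of immune responses, had 111, 45 and 56.9 across wild-type 1 to 3 and 44.5, 43.3 and 46.2 across null 1 to 3, so it was high in wild-type 1 alone. Arid3c, with 1.35 to 17.9, did not pass the filter on low values.

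**Figure D3:**
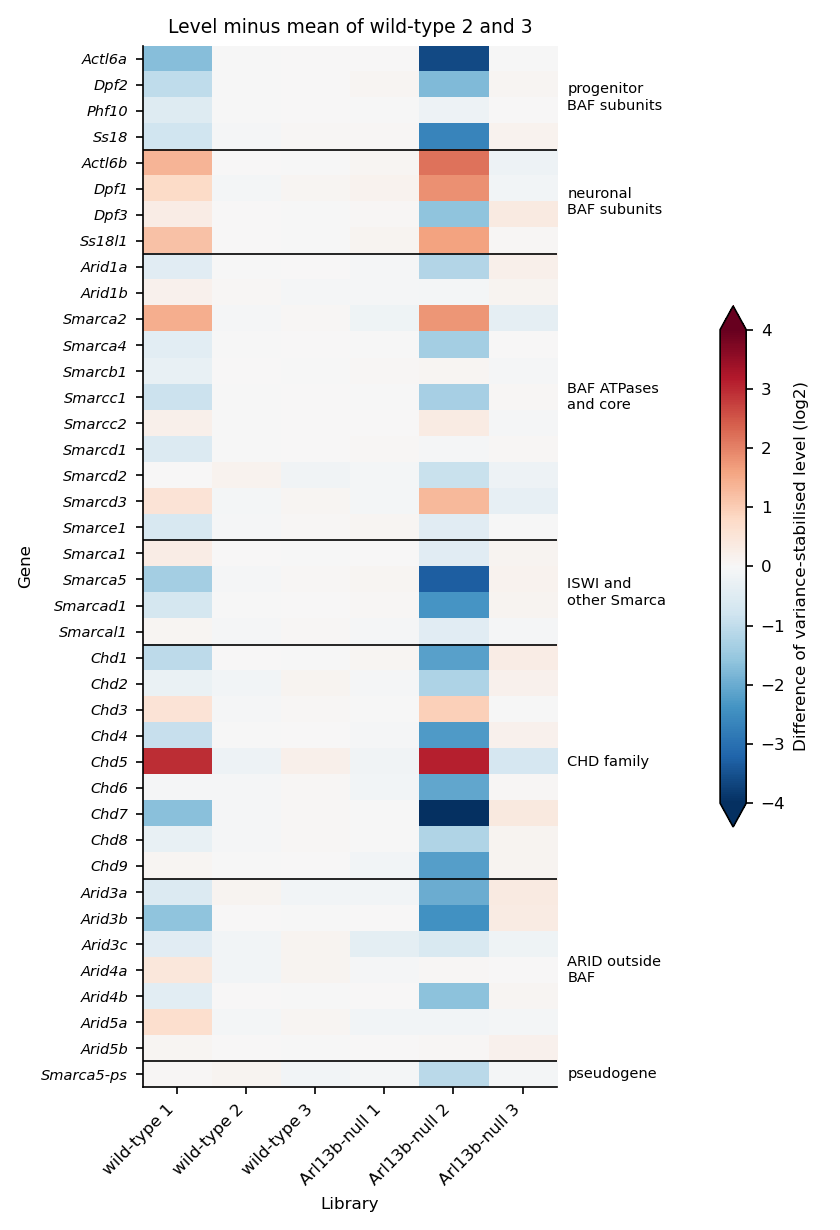
Level of each of the 40 members minus the mean of wild-type 2 and 3 (log2 colour scale, cut at −4 and 4), with genes in rows by group and libraries in columns. The columns of wild-type 1 and null 2 carry most of the colour, with Chd7 the lowest and Chd5 the highest gene in null 2.

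Counted over the 38 members that passed the filter, 4 were at least 2-fold higher (a difference of 1 on the log2 scale) and 6 at least 2-fold lower in wild-type 1 than in wild-type 2 and 3. Over all 14249 genes tested these shares were 12.2% and 6.55%, against 10.5% and 15.8% of the members, or 18.7% either way against 26.3%. In null 2, compared with null 1 and 3, 6 members were higher and 19 lower (15.8% and 50%), against 21.0% and 25.6% of all genes, or 65.8% either way against 46.7%. All 10 members past 2-fold in wild-type 1 were past it in the same direction in null 2: Actl6b, Ss18l1, Smarca2 and Chd5 higher, and Actl6a, Dpf2, Smarca5, Chd1, Chd7 and Arid3b lower. Most genes behaved alike: of the 2668 past it in wild-type 1 among all tested, 1319 were past it upwards in both and 851 downwards in both. Another 85 and 3 were past it in opposite directions (85 up in wild-type 1). The median difference of the members was −0.28 in wild-type 1 and −1.0 in null 2, against −0.049 and −0.096 for all genes, whose median level in null 2 differed by −0.13 from that in null 1 and 3. Across members, which are not replicates, the differences in the 2 libraries correlated with r = 0.88 (n = 38), against 0.71 across all genes tested, and every point rests on the same 6 libraries. These comparisons have 1 library on one side and no test.

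**Figure D4:**
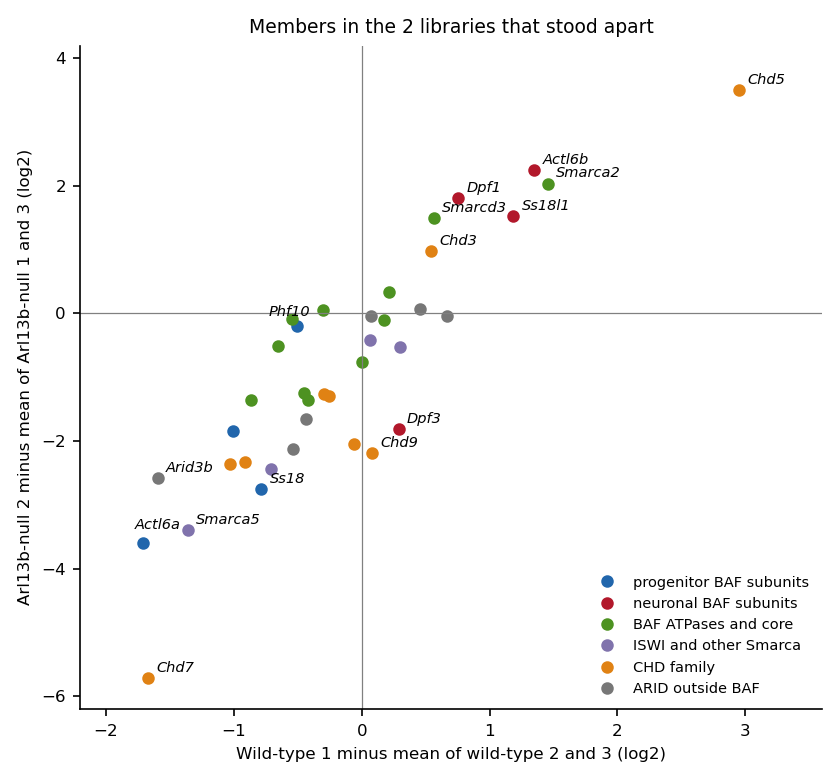
Difference of each of 38 members in wild-type 1 from wild-type 2 and 3 (x axis, log2) against that in null 2 from null 1 and 3 (y axis, log2), with 1 point per gene coloured by group. Points run from Chd7 at the lower left to Chd5 at the upper right, while Dpf3 and Chd9 lie low on the y axis and near 0 on the x axis.

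The comparison of genotypes asks whether loss of Arl13b alters these remodelers. Over all 6 libraries, no member differed beyond the spread between libraries. In limma, 0 of 38 members passed an adjusted p of 0.05, as did 0.0% of all genes, and 0 had an unadjusted p under 0.05, against 1.14% of all genes. The groups overlapped for every one of the 38, whereas they did not for 8.26% of all genes (4.67% higher and 3.59% lower). Actl6a had a mean level of 11.28 ± 0.99 (SD, n = 3) over the wild-type and 10.66 ± 2.08 (SD, n = 3) over the null libraries, a difference of −0.62 ± 1.12 (SE; limma adjusted p = 0.990). Actl6b had 10.90 ± 0.78 and 11.14 ± 1.30, a difference of 0.24 ± 0.74 (limma adjusted p = 0.990). The members with the smallest p were Smarcd2 (−0.40 ± 0.28), Arid5a (−0.31 ± 0.25), Chd9 (−0.76 ± 0.63) and Chd6 (−0.68 ± 0.59) among those below 0, and Smarcd1 (0.20 ± 0.21) and Smarcb1 (0.13 ± 0.16) among those above, all with a limma adjusted p of 0.990. They were followed below 0 by Smarcal1 (−0.20 ± 0.19) and Dpf3 (−0.50 ± 0.55) and above 0 by Dpf1 (0.37 ± 0.57), Phf10 (0.10 ± 0.22), Chd3 (0.13 ± 0.35) and Ss18l1 (0.20 ± 0.55). The remaining progenitor subunits were at −0.21 ± 0.60 (Dpf2) and −0.55 ± 0.81 (Ss18), and Chd7 at −1.16 ± 1.66. The members' median was −0.21, with 11 above 0 and 27 below, against 0.0026 for all genes. The difference of the neuronal minus progenitor index was 0.40, with an SD within groups of 1.46, and it was −0.61 without null 2, 1.03 without wild-type 1, and 0.085 or 0.081 without wild-type 2 or 3.

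Wild-type 2 and 3 and null 1 and 3 had nearly the same remodeler levels. These 4 libraries were kept because they resemble each other, with the 2 that diverge in neuronal and progenitor markers left out, so that small differences and narrow intervals follow in part from that choice. In limma 0 of 38 members passed (smallest adjusted p = 0.236), against 0.253% of all genes (0.0702% higher and 0.182% lower), and 1 member, Smarca2, had an unadjusted p under 0.05, or 2.63%, against 14.4% of all genes. The groups of 2 did not overlap for 12 members, 10 higher and 2 lower, or 31.6%, against 47.5% of all genes (29.3% higher and 18.1% lower). The median absolute difference was 0.063 for members and 0.079 for all genes, and the largest was that of Chd5. Sex-linked transcripts also separated these groups. Ddx3y, on the Y chromosome, had 1093 and 1258 normalized counts in wild-type 2 and 3 and 0 and 1.23 in null 1 and 3. Sex and genotype therefore cannot be told apart here. The sex-linked Xist ran the other way, with 26.5 and 213 in wild-type 2 and 3 and 16292 and 19017 in null 1 and 3. In wild-type 1 Xist stood at 15101 and Ddx3y at 0.54, near the values of null 1 and 3. Null 2 combined 0 for Ddx3y with only 244 for Xist, a pairing seen in no other library. The part of sex in the values of wild-type 1 and null 2 was not tested. Surface ectoderm markers summed to 4106 and 1841 in wild-type 2 and 3 and to 802 and 298 in null 1 and 3, and radial glial markers to 110556 and 112821 and to 124020 and 140456.

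Each exchanged subunit had a narrow interval for the genotype difference in these 4 libraries. For Actl6a the difference was 0.0085 ± 0.044 (SE), with a 95% interval, not adjusted for the number of genes, of −0.10 to 0.12. For Actl6b it was −0.062 ± 0.098, with an interval of −0.31 to 0.18. Phf10 differed by 0.00071 (−0.13 to 0.13), Dpf2 by 0.067 (−0.041 to 0.18), Ss18 by 0.10 (−0.046 to 0.25), Ss18l1 by 0.092 (−0.033 to 0.22) and Dpf1 by 0.019 (−0.24 to 0.28). Dpf3, at low counts, had the widest interval of the 8, −0.099 to 0.50 around 0.20. None of the 8 intervals reached a 2-fold difference, which holds for these 2 pairs of similar libraries and not for the genotypes at large. The index differed by 0.018, with an SD within groups of 0.049.

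Smarca2, Smarcd3 and Chd5, which were high in wild-type 1 and null 2, had the smallest p among members below 0 in the 4 libraries. Smarca2 differed by −0.26 ± 0.077 (SE; limma adjusted p = 0.236, interval −0.46 to −0.072), with counts of 2247 and 2426 in wild-type 2 and 3 and 2056 and 1817 in null 1 and 3. Smarcd3 differed by −0.19 ± 0.096 (limma adjusted p = 0.437) and Chd5 by −0.40 ± 0.21 (limma adjusted p = 0.457), and null 3 had the lowest count of each. Leaving out 1 of the 4 libraries moved Smarcd3 between −0.32 (without null 1) and −0.071 (without null 3), and Chd5 likewise between −0.67 and −0.13. Actl6b and Dpf1, which also had their lowest counts there, were given above. Smarcd2 (−0.15 ± 0.10), Smarcal1 (−0.042 ± 0.054) and Arid5a (−0.082 ± 0.11) followed. Neuronal marker sums were 155145 and 155091 in wild-type 2 and 3 and 164445 and 164769 in null 1 and 3. The part of cell makeup in the values of these members was not tested.

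Among members above 0, Chd1 (0.18 ± 0.076, SE; limma adjusted p = 0.373), Smarca5 (0.10 ± 0.055), Ss18l1, Ss18, Dpf3 and Arid3b (0.17 ± 0.11) had the smallest p. Chd1 had 3487 and 3485 normalized counts in wild-type 2 and 3, 3672 in null 1 and 4251 in null 3, so most of the difference lay in 1 library. Chd7 differed by 0.19 ± 0.13 (limma adjusted p = 0.566) and likewise had its highest value, 10475, in null 3. Leaving out null 1, which sets null 3 alone against wild-type 2 and 3, took Chd1 to 0.28 and Chd7 to 0.39, and these 2 members then passed (limma adjusted p = 0.0499 and 0.0308). In that fit the lone null library is assumed to vary like the wild-type pair, and 725 of all 14249 genes passed, or 5.09%, so that 2 of 38 members is near the background. Library null 3 also held the most red blood cell RNA, with a marker sum of 283828 against 56043 to 102386 in the other 3, and the most cell cycle RNA (90316 against 76650 to 82539), and the part of these in the Chd1 and Chd7 values was not tested.

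**Figure D5:**
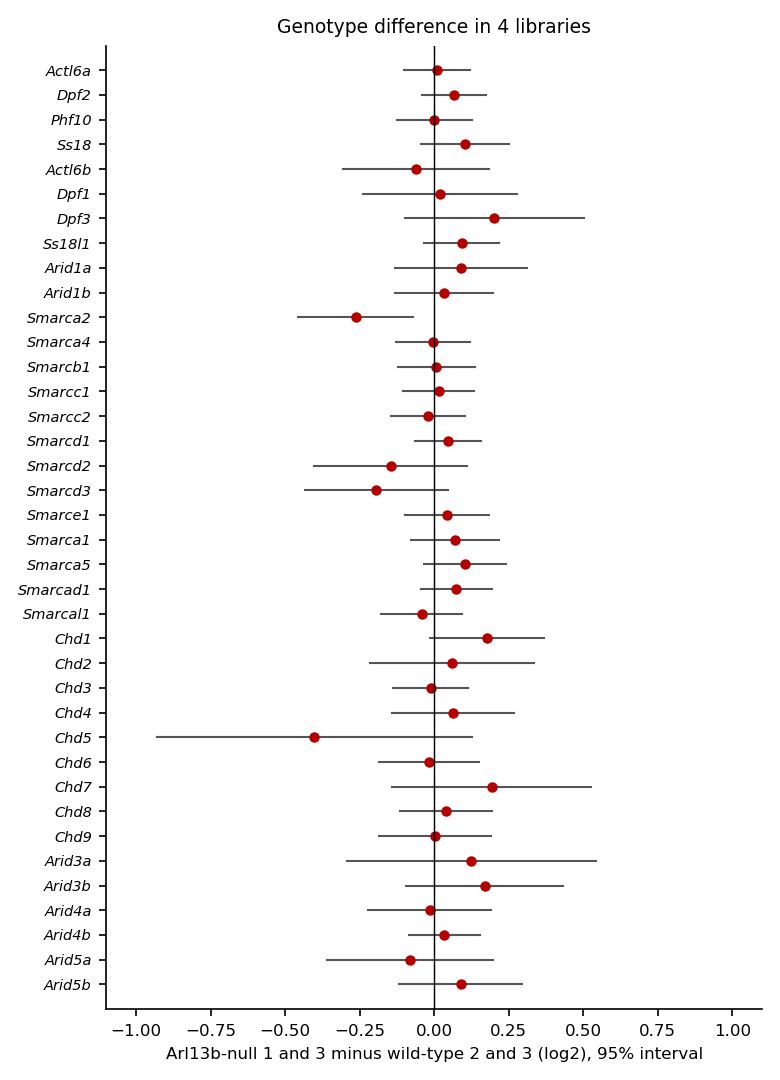
Difference of mean level, null 1 and 3 minus wild-type 2 and 3 (log2, x axis), for the 38 members tested, with points for the estimate and lines for the 95% interval from limma, not adjusted for the number of genes. All intervals but that of Smarca2 (−0.46 to −0.072) include 0, and that of Chd5 (−0.93 to 0.13) is the widest.

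Partner subunits outside the rule gave a like picture, with 0 of 49 called in limma in either comparison. At an unadjusted p under 0.05 there were none over the 6 libraries. Over the 4 there were 2 of 11 BAF partners, none of 9 ISWI partners, 1 of 12 NuRD partners, 1 of 12 INO80-family genes and 1 of 5 switch regulators, or 18.2%, 0%, 8.33%, 8.33% and 20%, against 14.4% of all genes. Of 11 other BAF subunits, Bcl11a and Bcl11b, zinc-finger proteins of cortical and striatal neurons that bind BAF, had the smallest p in the 4 libraries. Bcl11b had 3374 and 4061 normalized counts in wild-type 2 and 3 and 2510.1 and 1275 in null 1 and 3, a difference of −1.02 ± 0.30 (SE; limma adjusted p = 0.238), and 10058 in wild-type 1 and 8827 in null 2. Bcl11a differed by −0.43 ± 0.099 (limma adjusted p = 0.166), with 4833 and 5281 in wild-type and 4096 and 3391 in Arl13b-null, and Bicral, of the non-canonical BAF complex, by 0.16 ± 0.065 (limma adjusted p = 0.365). The groups of 2 did not overlap for 3 of the 11 BAF partners, Bcl11a and Bcl11b among them, or 27.3%, against 47.5% of all genes. Null 3 had the lowest count of both Bcl11a and Bcl11b.

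Of the ISWI partners, 7 of 9 were at least 2-fold lower in null 2 than in null 1 and 3 and 2 of 9 lower in wild-type 1 than in wild-type 2 and 3, or 77.8% and 22.2%, against 25.6% and 6.55% of all genes. Baz1a, the partner of Smarca5 in ACF, stood at 534, 1816 and 1895 normalized counts across wild-type 1 to 3 and 1925, 23.6 and 2284 across null 1 to 3. In the 4 libraries it differed by 0.17 ± 0.088 (SE; limma adjusted p = 0.453), and Baz2a and Baz1b by 0.15 and 0.058. Among 12 NuRD partners, 6 were 2-fold lower in null 2 (50%, against 25.6%) and 1 in wild-type 1 (8.33%, against 6.55%), and none was 2-fold higher in either. Mbd2, which binds methylated DNA, differed by 0.24 ± 0.072 (SE; limma adjusted p = 0.246) in the 4 libraries, followed by Cdk2ap1 (0.080) and Mta3 (0.084). Of 12 INO80-family genes, 2 were 2-fold lower in null 2 (16.7%, under the 25.6% of all genes) and 0 in wild-type 1, and Ruvbl2, an ATPase shared by these complexes, differed by 0.13 ± 0.049 in the 4 libraries (limma adjusted p = 0.341), followed by Ruvbl1 (0.12) and Yy1 (0.099).

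Regulators tied to the switch were lower in wild-type 1 and null 2 than in the others of the genotype, though not all by much. Of the 5 listed, 2 were at least 2-fold lower in wild-type 1 and 4 in null 2, or 40% and 80%, against 6.55% and 25.6% of all genes. Rcor1 was the least changed, with differences of −0.10 in wild-type 1 and −0.92 in null 2. Rest, the repressor of neuronal genes, stood at 459.8, 922 and 876 normalized counts across wild-type 1 to 3 and 814, 86.4 and 841 across null 1 to 3. Its corepressor gene Rcor2 stood at 3348, 7788 and 8368 across wild-type 1 to 3 and 8832, 1444 and 9760.0 across null 1 to 3. Both genes were lowest in null 2 and next lowest in wild-type 1. All 12 cell cycle markers were lower in both libraries too. The part of these regulators in the subunit levels was not tested. In the 4 libraries Rest differed by −0.11 ± 0.063 (SE; limma adjusted p = 0.494), Rcor2 by 0.20 ± 0.068 (limma adjusted p = 0.286) and Rcor1 by 0.12 ± 0.069 (limma adjusted p = 0.484), and none of the 5 genes of this list passed.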

How the data were processed

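Poly(A) RNA-seq libraries of mouse telencephalon were grouped by genotype as the labels give it. The authors deposited variance-stabilised normalized counts, which are log2-like values, for 24444 symbols. The build is mm9 and the tools are DESeq2, DESeq 1.16.1, Salmon 0.9.1, STAR 2.6.0 and CASAVA per the submitters' processing notes, which assign no roles. How symbols were annotated and filtered is not given in the sources used.

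The lowest value, 5.13, was taken as that of a count of 0, which fixes the inverse of the parametric transformation. Genes with a mean at least 1 above it over the 6 libraries were kept, 14249 in all and 38 of 40 members. Genotypes were compared using limma 3.58.1 under R 4.3.3 (moderated test, mean-variance trend, two-sided, Benjamini-Hochberg adjustment over all genes kept, threshold 0.05). Whole read counts were not given, so no count test was run, and the sequencing depth behind low values is unknown. Counts per kilobase use the longest protein-coding transcript in GENCODE M21, and promoters come from RefSeq (GRCm38.p6).

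The members and lists, and the comparison of 4 libraries, were chosen with earlier results of these data known. Values in every library are given for the 8 exchanged subunits and, per comparison, up to 6 members per direction with the smallest p. Up to 3 genes of each partner list with the smallest p are named too. Chd7, the other members described by their ranges, and the per-kilobase shares were chosen after the values were seen. Alternatives left out each library, weighted libraries, added a replicate block, changed the filter, centred or quantile-normalized libraries, dropped the trend, used robust moderation or inverted counts with 1 added, and took Dpf2 or Dpf3 from the subunit lists. One marker gene is not reported here and was left out of its list. The test was checked on simulated data. Figures were drawn with matplotlib 3.10.9.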

Additional observations from a re-analysis of the deposited data

How the results depend on the processing

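No member passed the threshold in limma under any of 15 alternatives over the 6 libraries, nor under 10 of 11 over the 4, and between 0 and 2 passed without 1 of the 4 libraries. Those 2 were Chd1 and Chd7, without Arl13b-null replicate 1. Leaving out 1 of the 6 libraries at a time, 6 of 17 named members kept 1 sign (Smarcd2, Arid5a, Chd9, Smarcal1, Smarcd1 and Smarcb1) and 11 did not. For those 11 the difference ranged from −1.23 to 0.58 for Actl6a, −0.51 to 0.69 for Actl6b, −1.03 to 0.36 for Ss18, −0.30 to 0.60 for Ss18l1, −0.55 to 0.40 for Dpf2, −0.23 to 0.74 for Dpf1, −0.87 to 0.11 for Dpf3, −0.065 to 0.19 for Phf10, −0.19 to 0.31 for Chd3, −1.06 to 0.0033 for Chd6 and −2.21 to 0.75 for Chd7. Over the 4 libraries 11 of 18 kept 1 sign, and the difference ranged from −0.0033 to 0.020 for Actl6a, −0.20 to 0.076 for Actl6b, −0.11 to 0.15 for Dpf1, −0.014 to 0.015 for Phf10, −0.087 to 0.0043 for Smarcal1, −0.17 to 0.0051 for Arid5a, 0.074 to 0.28 for Chd1 and −0.0079 to 0.39 for Chd7. With library weights over the 6, whose estimation ended before full convergence, values took the other sign for Chd9 (0.078), Chd6 (0.050), Dpf3 (0.31), Dpf2 (0.055), Ss18 (0.14), Chd7 (0.36), Smarcb1 (−0.039), Dpf1 (−0.052) and Actl6b (−0.18). With quantile normalization they did so for Arid5a (0.0078), Smarcb1 (−0.033) and Chd3 (−0.11). Over the 4 libraries the sign turned under centring for Actl6a (−0.0066) and Phf10 (−0.014), and under quantile normalization for Actl6a (−0.033), Phf10 (−0.026) and Dpf1 (−0.017). The cause was not tested. The neuronal minus progenitor index over the 4 libraries was −0.028 without Dpf3. Deviations of same-numbered libraries from their genotype mean correlated at −0.71, −0.71 and 0.62. Wild-type 1 and null 2 dominate these deviations, so the values cannot show whether replicate numbers pair the libraries. With a replicate block 0 members passed in limma (adjusted p = 0.9997 for Actl6a). Depth behind low values, as for Dpf3, Arid5a and Arid3c, is unknown.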
